A study of Mus musculus with 4 samples.

Results

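The nuclear genes for the subunits of mitochondrial oxidative phosphorylation were followed in WT and MSC KO induced regulatory T cells of the mouse. They were chosen by symbol alone: names starting with Nduf, Uqcr, Cox4 to Cox8 or Atp5, the 4 Sdh subunits, and the cytochromes Cyc1 and Cycs. The rule found 92 genes among the 22144 symbols held by both deposited tables, and 88 of them had a mean of at least 1 FPKM (a level per transcript length and sequencing depth) over the 4 libraries, as did 10603 genes in all. The 4 left under this limit were the complex IV isoforms Cox7b2, Cox8b, Cox8c and Ndufa4l2. Cox6a2, at a mean of 1.48 FPKM, lay just inside the limit and Cox8b, at 0.399 FPKM, just outside it.

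Naive T cells of C57BL/6 mice were sorted and cultured for 3 days on plate-bound anti-CD3 and anti-CD28 at 1 µg/ml with TGF-beta at 2 ng/ml, the culture that turns them into induced regulatory T cells (iTreg cells). RNA was sequenced from 2 WT libraries (WT 1 and WT 2) and 2 MSC KO libraries (MSC KO 1 and MSC KO 2), which shared strain, culture and time and differed by label in genotype only. Msc encodes musculin, a transcription factor of the basic helix-loop-helix family. The labels do not give the deleted part of the gene, the age or number of the mice, or whether the libraries came from separate animals or cultures, so a p-value here speaks of the spread among these 4 libraries, part or all of which may be technical.

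Oxidative phosphorylation couples electron transport along complexes I to IV of the inner mitochondrial membrane to ATP synthesis by complex V. Complex I takes electrons from NADH and complex II from succinate, complex III passes them from ubiquinone to cytochrome c, and complex IV hands them to oxygen. Most subunits are encoded in the nucleus and a few core subunits of complexes I, III, IV and V by mitochondrial DNA, so assembly draws on both genomes. T cells raise both glycolysis and respiration on activation, and regulatory T cells are known to rely on mitochondrial respiration.

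Several promoters are given here because their genes carry the results on assembly factors, complex I and cytochrome c. Each window holds 250 bases before and 50 after the gene's start, taken from RefSeq on GRCm38.p6 and written 5′ to 3′ on the gene's strand. Capitals mark a match to 1 of 4 short motifs of factors known to act on respiratory chain promoters. These were GCGCATGC for NRF1 (nuclear respiratory factor 1), CCGGAAG for the ETS factor GABP, AAGATGG for YY1 and AAGGTCA for estrogen-related receptors (ERR). Both strands were searched, and a promoter counted once for a motif even where matches overlapped each other or another motif. Ndufaf3 lies at chr9:108567387-108567686 on the minus strand, Ndufa3 at chr7:3617123-3617422 on the plus strand, Ndufaf4 at chr4:24897833-24898132 on the plus strand and Cycs at chr6:50566520-50566819 on the minus strand.
Ndufaf3: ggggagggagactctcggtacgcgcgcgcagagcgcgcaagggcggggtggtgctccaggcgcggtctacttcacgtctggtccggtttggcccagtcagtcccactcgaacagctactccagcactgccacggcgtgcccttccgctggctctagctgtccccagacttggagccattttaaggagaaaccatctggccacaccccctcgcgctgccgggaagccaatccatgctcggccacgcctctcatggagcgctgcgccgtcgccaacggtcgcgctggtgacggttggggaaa
Ndufa3: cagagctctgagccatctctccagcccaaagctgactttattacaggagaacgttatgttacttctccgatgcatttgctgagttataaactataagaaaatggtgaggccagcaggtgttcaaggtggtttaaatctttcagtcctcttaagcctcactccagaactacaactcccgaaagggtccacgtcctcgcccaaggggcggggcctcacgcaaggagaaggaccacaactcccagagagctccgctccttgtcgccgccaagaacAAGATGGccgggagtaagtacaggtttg
Ndufaf4: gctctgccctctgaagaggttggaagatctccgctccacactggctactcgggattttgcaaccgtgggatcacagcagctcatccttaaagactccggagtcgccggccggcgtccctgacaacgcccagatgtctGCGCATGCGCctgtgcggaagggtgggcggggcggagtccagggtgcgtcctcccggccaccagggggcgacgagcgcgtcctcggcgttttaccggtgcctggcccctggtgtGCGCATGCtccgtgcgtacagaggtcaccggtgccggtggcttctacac
Cycs: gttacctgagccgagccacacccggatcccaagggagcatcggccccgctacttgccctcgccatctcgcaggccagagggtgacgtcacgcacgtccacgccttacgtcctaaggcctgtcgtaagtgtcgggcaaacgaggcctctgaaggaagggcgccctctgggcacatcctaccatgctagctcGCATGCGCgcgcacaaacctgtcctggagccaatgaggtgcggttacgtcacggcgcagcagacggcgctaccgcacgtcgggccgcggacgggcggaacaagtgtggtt

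The Ndufaf3 window held none of the 4 motifs. The Ndufa3 window held the YY1 letters from base 273, just after the start. NRF1 letters stood in the Ndufaf4 window at base 138, overlapped by a match on the other strand at base 140, and again at base 252. In the Cycs window they stood on the minus strand at base 191. A match is a description of letters and shows neither a bound site nor a cause.

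Of the 88 genes, 70 had a promoter entry. NRF1 letters were in 12 of these (17.1%), against 6.6% of the 7509 tested genes with an entry and 3.0% of all 27025 genes with one. ERR letters were in 8 (11.4%), against 3.8% and 5.4%. YY1 letters were in 10 (14.3%), against 8.9% and 7.3%, and GABP letters in 17 (24.3%), against 22.2% and 9.9%. The 12 genes with NRF1 letters had a median difference of 0.03 between MSC KO 1 and WT 1 and of -0.14 between MSC KO 2 and WT 2, on the log2(FPKM + 1) scale. For the 58 genes without them the medians were 0.02 and -0.11. With GABP letters the 17 genes had 0.12 and -0.12, and the 53 without them 0.01 and -0.11. With ERR letters the 8 genes had 0.01 and -0.11, and the 62 without them 0.02 and -0.12.

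The estimated depth was 25500000 fragments for WT 1 and 35200000 fragments for WT 2, against 28100000 fragments for MSC KO 1 and 34300000 fragments for MSC KO 2. Msc was listed at 0.0243 and 0.0178 FPKM in WT, against 0.331 and 0.939 FPKM where the label is MSC KO. The targeted gene was thus higher where a knockout is labelled, and every direction drawn below is between libraries by their labels. T cell markers were high in all libraries (Cd3e 133 to 155 FPKM). Foxp3, the defining factor of regulatory T cells, stood at 62.8 and 66.0 FPKM in WT, against 2.97 and 7.05 FPKM under the MSC KO label. The other induced regulatory T cell markers did not follow it: Ctla4 was at 112 and 120 FPKM in WT, against 217 and 188 FPKM in MSC KO, and Il2ra at 302 and 317 against 364 and 307 FPKM. Summed markers of B cells (5.04 to 7.25 FPKM), myeloid cells (1.97 to 4.25 FPKM), natural killer cells (up to 0.0688 FPKM) and red cells (up to 0.056 FPKM) were low. The CD8 pair summed to 9.13 to 19.8 FPKM and mast cell markers to 2.47 to 14.9 FPKM, with 3 of the 4 mast cell genes at 0 and Kit carrying the sum. Their part in the results was not tested.

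Respiratory chain transcripts were abundant in all 4 libraries. The median member had a mean of 229 FPKM, against 13.2 FPKM over all genes tested, and 75 of the 88 reached 50 FPKM. FPKM is per length, so levels can be set side by side between genes: the most abundant were Atp5b (1037 FPKM), the catalytic beta subunit of ATP synthase, Atp5e (955 FPKM) and Atp5k (933 FPKM). Cox6a2 (1.48 FPKM), Cox4i2 (3.89 FPKM) and Atp5s (4.91 FPKM) were the least abundant.

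**Figure D1:**
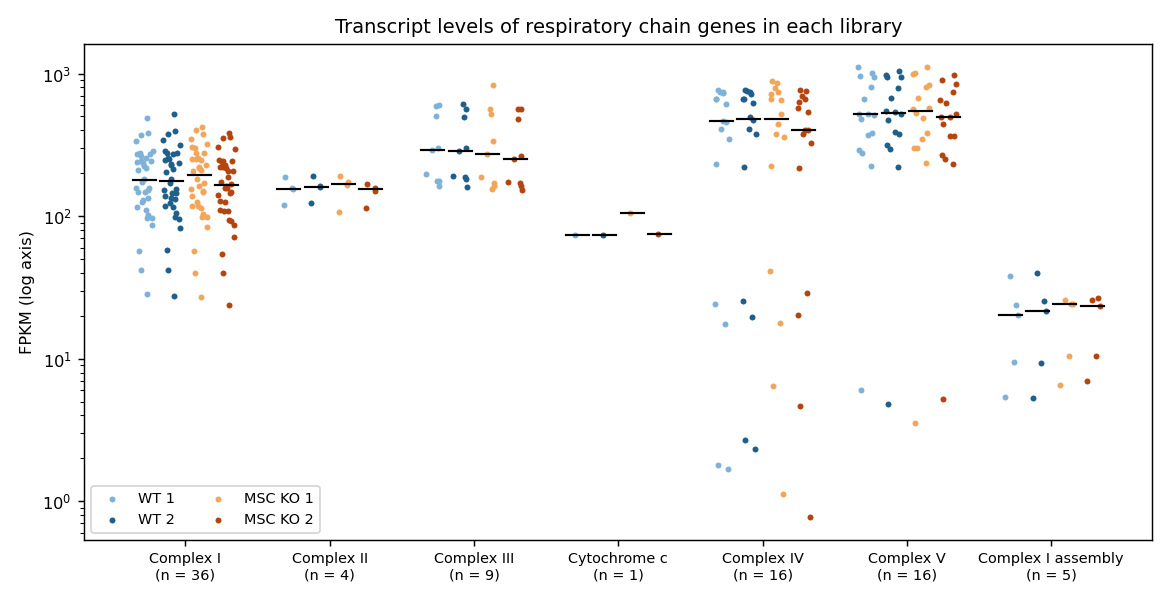
Level in FPKM (log axis) of each tested gene, by complex and library, with the median of each library as a black line. The complexes stood at similar levels in the 4 libraries, and a few tissue isoforms of complex IV and Atp5s lay far below the other subunits.

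Most of these genes differed little between WT and MSC KO. MSC KO was compared with WT within each deposited table, WT 1 with MSC KO 1 (the first table) and WT 2 with MSC KO 2 (the second table). In both tables, 62 of the 88 genes (70.5%) lay within 0.2 of their WT library on the log2(FPKM + 1) scale, against 33.1% of all genes tested. None passed an adjusted p of 0.05 in limma with the table as a block, where 1 gene of all 10603 did (0.00943%). The members' adjusted p in limma ran from 0.148 to 0.994. At an unadjusted p under 0.05 in the same fit there were 3 members, Ndufaf3, Ndufa3 and Cox4i2, which is 3.41% of them against 20.4% of all genes. None was marked significant in the authors' deposited tables, where 0.934% of all genes were marked in either table, and the lowest q-value of a member there was 0.9992. Each of those tests set 1 library against 1 library. All members shared the same q-value within a table, so these values do not tell members with small and larger differences apart. A difference of at least 0.3 in the same direction in both tables was seen for 3 members, Ndufaf3, Cox4i2 and Cox6a2, against 16.8% of all genes.

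The direction of the small differences depended on the library. Against WT 2, 72 of the 88 genes were lower in MSC KO 2, where 55.7% of all genes were. Against WT 1, 35 were lower in MSC KO 1, where 50.3% of all genes were, but this count was 53 with libraries rescaled to 1 common sum and 59 with quantile normalization. In the second table the same settings gave 76 and 67. Lower in both tables were 33 members, which is 37.5% of them and of all genes (37.5%), and 50 with quantile normalization. Higher in both tables were 14 members (15.9%), against 31.2% of all genes, and 8 with 1 common sum. As deposited, the largest class, 39 members (44.3%), was higher in MSC KO 1 than in WT 1 and lower in MSC KO 2 than in WT 2, a pattern held by 18.1% of all genes. With 1 common sum this class held 27 members and the class lower in both held 49. With quantile normalization they held 16 and 50, so that under these 2 scalings lower in both was the largest class. Median centring kept the order as deposited, with 37 and 31 members, against 15.2% and 34.6% of all genes. It gave 17 members higher in both. As deposited, the pattern of higher in MSC KO 1 and lower in MSC KO 2 varied among neighbouring gene lists. It was held by 71.4% of carriers and porins, 50% of glycolysis genes and 38.7% of mitochondrial ribosomal protein genes. In the tricarboxylic acid cycle it was 33.3%, and for coenzyme Q synthesis, other assembly factors and mitochondrial biogenesis 15.8% to 23.1%.

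**Figure D2:**
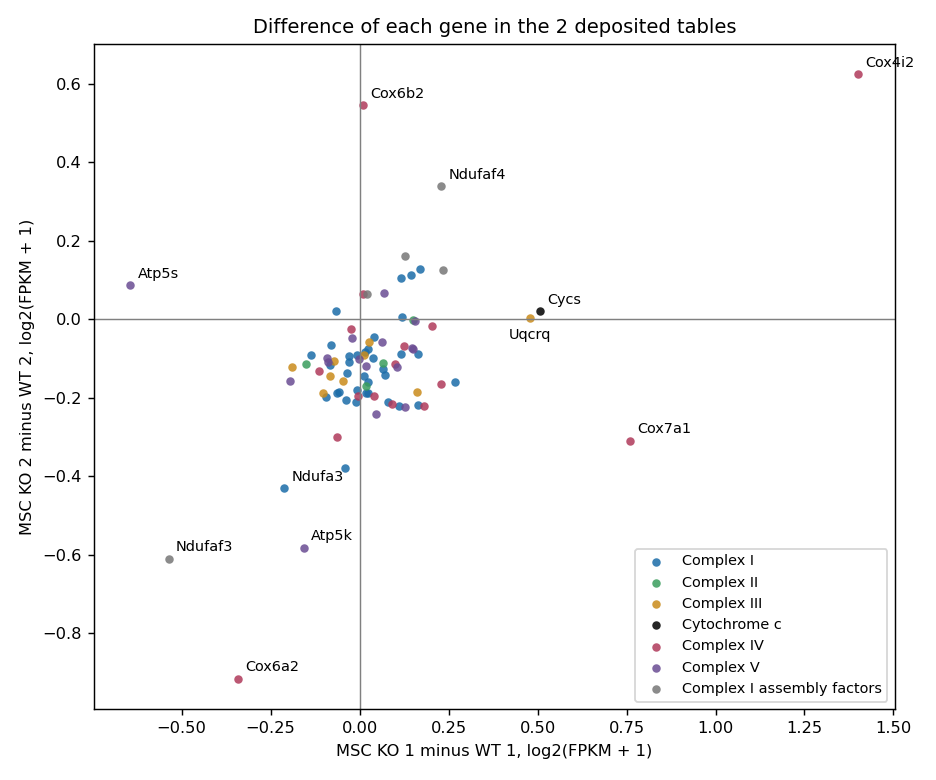
Difference of each gene in log2(FPKM + 1), MSC KO 1 minus WT 1 on the horizontal axis and MSC KO 2 minus WT 2 on the vertical axis, coloured by complex. Most points lie within 0.2 of 0 across and between 0 and -0.25 upward, and the genes named in the plot are among those farthest out. Cox4nb, no subunit, is not drawn.

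The median difference over the 88 genes was 0.02 in the first table against -0.11 in the second table, where the medians over all genes were -0.00 and -0.04. With libraries rescaled to 1 common sum the members' medians were -0.03 and -0.14, and with quantile normalization -0.04 and -0.08. With median centring they were 0.02 and -0.07, with the signs as deposited. The mean of both tables had a median of -0.05 over the members and -0.02 over all genes. It was -0.10 with MSC KO 1 left out and 0.01 with MSC KO 2 left out, so as deposited its sign rested on MSC KO 2. With 1 common sum or quantile normalization the medians of both tables were below 0, and no library was left out under those scalings. Fewer cells of a type and less RNA per cell cannot be told apart in such bulk libraries.

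As deposited, the median gap over the members between the 2 MSC KO libraries was larger than that between the genotypes. Differences between libraries of a genotype were not computed under another scaling. MSC KO 2 was lower than MSC KO 1 for 72 of the 88 genes (81.8%), against 51.8% of all genes, with a median difference of -0.14 over the members and -0.01 over all genes. The share was 73% of other genes between 200 and 500 FPKM and 42.9% of those at 500 FPKM and above. It was 80% for glycolysis, 78.7% for mitochondrial ribosomal proteins and 76.2% for carriers and porins. For mitochondrial biogenesis it was 63.2%, for coenzyme Q synthesis 53.8%, for the tricarboxylic acid cycle 50% and for other assembly factors 44.4%. WT 2 was lower than WT 1 for 39 (44.3%), against 35.1% of all genes, with a median difference of 0.01 over the members and 0.03 over all genes. MSC KO 2 was the lowest of the 4 libraries for 60 members, which was true of 30.9% of all genes. Both MSC KO libraries lay below both WT libraries for 25 members (28.4%), against 32.5% of all genes. Both lay above for 10 (11.4%), against 26.6% of all genes.

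**Figure D3:**
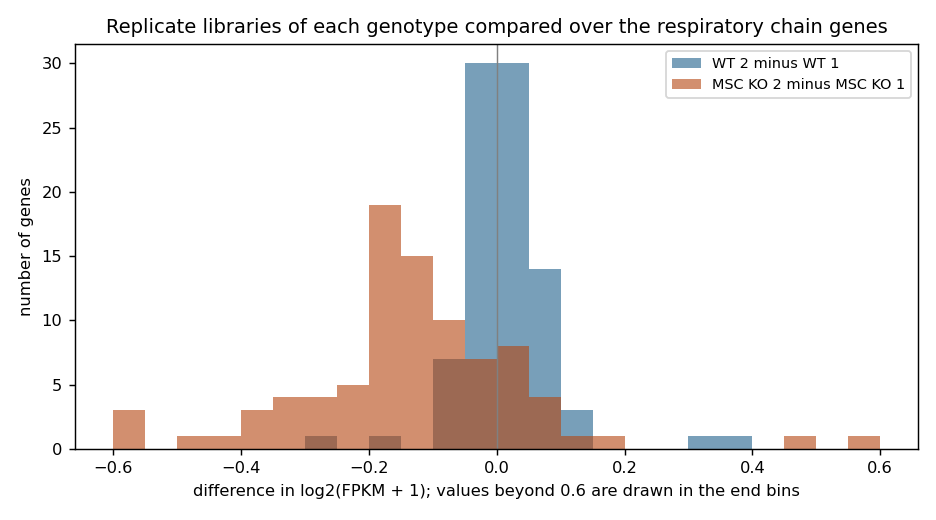
Number of the 88 genes by difference between replicate libraries in log2(FPKM + 1), WT 2 minus WT 1 and MSC KO 2 minus MSC KO 1. The WT differences centre near 0 (median 0.01) and the MSC KO differences lie to the left of it (median -0.14).

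Set beside other genes of like level, the members were close to them between 10 and 200 FPKM and lower from 200 to 500 FPKM in the second table. Between 50 and 100 FPKM the 5 members had a median of -0.09 there and the 941 other genes -0.09, and between 100 and 200 FPKM the 22 members had -0.11 and the 459 others -0.10. Between 200 and 500 FPKM the 29 members had -0.18 and the 267 others -0.12. At 500 FPKM and above the medians had opposite signs, -0.11 for 19 members and 0.06 for 177 other genes. This class was not alike in level: the median gene stood at 669 FPKM among the members and at 1935 FPKM among the others. The members are short: their longest annotated transcript had a median of 1186 bp over 86 genes with a length, against 3266 bp over all tested genes with one. With a longest transcript under 1000 bp, the 38 members had a median of -0.14 in the second table and the 513 other genes 0.00. From 1000 to 2500 bp the values were -0.10 for 34 members and -0.03 for 2535 others, and from 2500 bp -0.09 for 14 members and -0.04 for 6378 others.

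Complex I, the NADH dehydrogenase and the largest of the complexes, was represented by 36 subunits at means of 26.8 (Ndufa11) to 452 FPKM (Ndufa3). None was called by limma at an adjusted p of 0.05, and 31 of the 36 were lower in MSC KO 2 than in WT 2. In both tables, 15 were lower (41.7%) and 4 higher (11.1%), and 16 (44.4%) were higher in the first table but lower in the second table. Over all genes, here and for the complexes below, these shares were 37.5%, 31.2% and 18.1%, and 55.7% were lower in MSC KO 2 than in WT 2. The median difference was -0.13 in the second table and 0.02 in the first table. There it was -0.04 with 1 common sum, -0.05 with quantile normalization and 0.02 with median centring. MSC KO 2 was the lowest library for 28 of them. The 7 core subunits, which hold the flavin and the iron-sulfur clusters, had a median of -0.07 over both tables, with 3 lower and 1 higher in both. Of the 10 Ndufb accessory subunits 4 were lower and 1 higher in both tables, and of the 19 other accessory subunits 8 were lower and 2 higher.

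Ndufa3, a small accessory subunit of the membrane arm, differed most in this complex. It stood at 487 (WT 1) and 518 FPKM (WT 2) against 420 (MSC KO 1) and 384 FPKM (MSC KO 2). Both MSC KO libraries lay below both WT libraries. The difference was -0.21 in the first table against -0.43 in the second table, or -0.32 ± 0.10 (SE) over both, with an adjusted p of 0.231 in limma. Its promoter, shown above, carries the YY1 letters. The 10 genes with these letters had medians of 0.01 in the first table against -0.18 in the second table, and the 60 genes without them 0.02 and -0.10.

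Ndufb2, an accessory subunit that is named here after its values were seen, was next at 255 and 271 FPKM in WT, against 248 and 208 FPKM in MSC KO, a difference of -0.21 with MSC KO 1 close to WT 1. Ndufs6, a zinc-binding subunit, was at 243 and 238 FPKM in WT, against 228 and 207 FPKM in MSC KO, a difference of -0.15. Ndufv2, the subunit that holds an iron-sulfur cluster beside the flavin, was at 130 and 134 FPKM in WT, against 118 and 126 FPKM in MSC KO (-0.11). Ndufb10 was at 147 and 139 FPKM in WT, against 139 and 128 FPKM in MSC KO (-0.10). The groups did not overlap for Ndufs6, Ndufv2 and Ndufb10, though for Ndufb10 WT 2 and MSC KO 1 were nearly level. Both MSC KO libraries lay below both WT libraries for 11 complex I genes (30.6%), against 32.5% of all genes. The NADH-binding flavoprotein Ndufv1 stood at 86.6, 82.3, 84.3 and 71.2 FPKM (the WT pair first), so that only MSC KO 2 stood apart. Ndufs1, the largest subunit, was at 42.3 and 41.8 FPKM in WT, against 39.9 and 40.0 FPKM in MSC KO.

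The 4 complex I subunits higher in both tables were Ndufa13, Ndufs3, Ndufab1 and Ndufb11. Ndufa13, also known as GRIM-19, was at 133 FPKM in each WT library, against 150 and 145 FPKM in MSC KO (0.15 ± 0.09 SE, adjusted p 0.412 in limma). Ndufs3, a core subunit, was at 147 and 146 against 163 and 158 FPKM, and Ndufab1, the mitochondrial acyl carrier protein, at 157 and 155 against 170 and 167 FPKM. In these 3 genes, 8.33% of the complex, both MSC KO libraries lay above both WT libraries, against 26.6% of all genes. Ndufb11, at 236, 228, 256 and 228 FPKM, was level in the second table. The loci of Ndufa13 and Ndufb11 overlap those of Tssk6 and Rbm10 in the tables, and the use of strand in counting is not given in the sources used here.

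Complex I assembly factors, which build the enzyme without staying in it, were fewer and lower in level, at means of 6.05 to 32.4 FPKM. Of the 5 matched, Ndufaf3 was lower and 4 were higher in both tables, and their median difference was 0.13 in each table. Over all genes 37.5% were lower and 31.2% higher in both tables, and 5 genes are few to set beside them. Ndufaf3 and Ndufaf4, which are known to bind each other during assembly, differed in opposite directions.

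Ndufaf3 (chromosome 9, 108468195 to 108469673 on mm9) showed the lowest adjusted p of all members. It stood at 37.8 (WT 1) and 40.1 FPKM (WT 2) against 25.8 (MSC KO 1) and 26.0 FPKM (MSC KO 2). The libraries of a genotype lay close together, and the groups were far apart. The ratio of MSC KO to WT was 0.681 in the first table, with a 95% interval for counting error of 0.629 to 0.738, and 0.647 in the second table, with 0.604 to 0.693 (exact Clopper-Pearson). Counting error is only a part of the spread among these libraries. Over 152 genes of middle level with a single transcript longer than 2500 bp, MSC KO 1 and MSC KO 2 differed by 5.4 times counting error. For WT 1 and WT 2 it was 1.83 times, for WT 1 and MSC KO 1 it was 5.6 times and for WT 2 and MSC KO 2 it was 5.77 times. The intervals given here and below are thus too narrow to stand for the spread between libraries. On the log2(FPKM + 1) scale the difference was -0.57 ± 0.09 (SE), with an adjusted p of 0.148 in limma. Fits with 1 MSC KO library left out had no block and took the lone library to vary like the others, so they are not used as support for Ndufaf3.

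Ndufaf4 (chromosome 4, 24825229 to 24832148 on mm9) was at 5.43 and 5.28 FPKM in WT, against 6.53 and 6.95 FPKM in MSC KO, with no overlap. Its ratio was 1.2 (1.07 to 1.36) in the first table and 1.31 (1.19 to 1.45) in the second table. The difference was 0.28 ± 0.10 (SE), with an adjusted p of 0.257 in limma. Ndufaf1, which acts early in building the membrane arm, stood at 20.3 and 21.5 against 24.1 and 23.6 FPKM. Atp5sl, which despite its symbol is known as a complex I assembly factor, was at 9.48 and 9.29 against 10.4 and 10.5 FPKM, and Ndufaf2 at 23.8 and 25.5 against 24.2 and 26.7 FPKM. For Ndufaf1 and Atp5sl the MSC KO libraries lay above the WT libraries, and for Ndufaf2 the groups overlapped. With Ndufaf4 this makes 3 of the 5 genes (60%) above, against 26.6% of all genes. Ndufaf3 was the 1 gene (20%) below, against 32.5%.

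**Figure D4:**
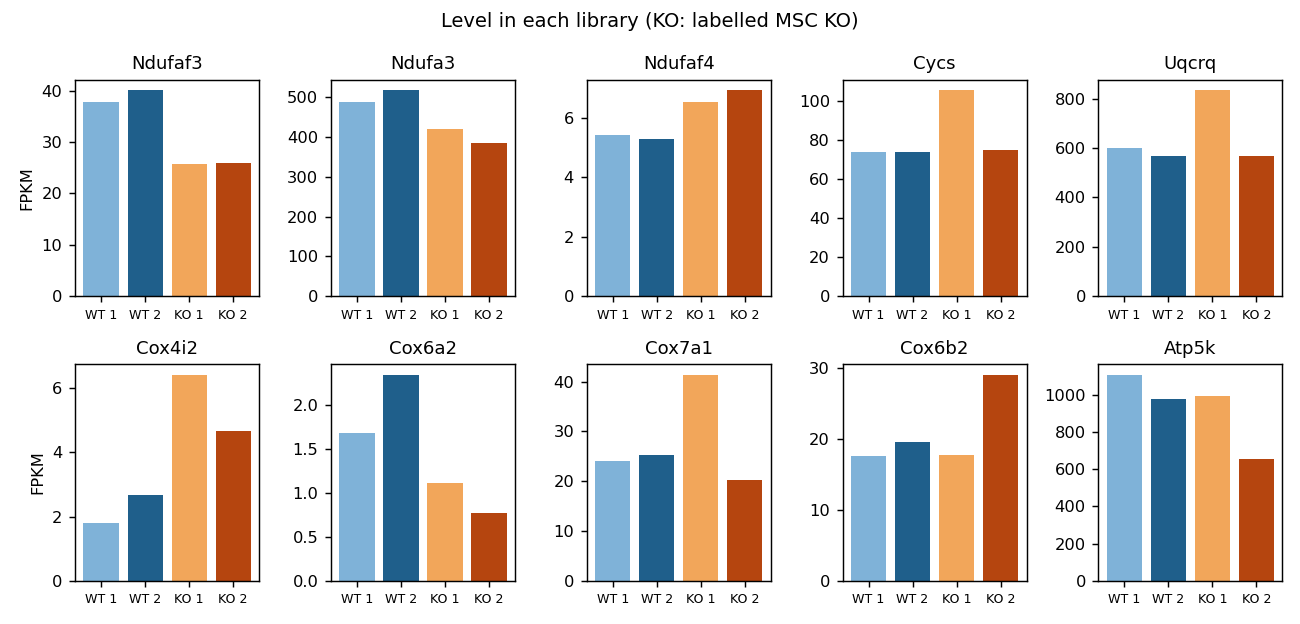
FPKM of 10 genes in each library (1 bar per library, axes from 0, a separate scale for each gene). Ndufaf3 and Ndufa3 were lower and Ndufaf4 and Cox4i2 higher in both libraries labelled MSC KO, while for Cycs, Uqcrq, Cox7a1 and Cox6b2 a single library stood high and for Atp5k MSC KO 2 stood low.

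Complex II, succinate dehydrogenase, links the tricarboxylic acid cycle to the chain and has 4 subunits. All 4 were lower in MSC KO 2 than in WT 2, with a median of -0.11, and 3 were higher in MSC KO 1 than in WT 1. The median over the 4 was 0.04 there, and also with median centring, but -0.01 with 1 common sum and -0.03 with quantile normalization. Sdha, the flavoprotein that oxidizes succinate, was lower in both tables, at 119 and 124 FPKM in WT, against 108 and 114 FPKM in MSC KO (-0.13 ± 0.09 SE, adjusted p 0.464 in limma). The iron-sulfur subunit Sdhb stood at 189, 191, 191 and 169 FPKM (the WT pair first). The membrane anchors Sdhc and Sdhd were at 155, 159, 172 and 159 FPKM and at 157, 163, 165 and 150 FPKM in the same order. Sdhc was level in the second table, and the groups overlapped for Sdhb, Sdhc and Sdhd.

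Complex III, the cytochrome bc1 complex, was the only one of the 5 whose median was below 0 in both tables as deposited, at -0.05 in the first table against -0.12 in the second table. Of its 9 genes 5 were lower and 1 higher in both tables, and 8 were lower in MSC KO 2 than in WT 2. Uqcrc2, a core protein, was at 176 and 187 FPKM in WT, against 154 and 172 FPKM in MSC KO (-0.16). Uqcrb was at 291 and 286 against 271 and 251 FPKM (-0.15), and the Rieske iron-sulfur protein Uqcrfs1 at 198 and 192 against 187 and 173 FPKM (-0.11). Cyc1, the cytochrome c1 heme protein, was at 177 and 182 against 171 and 163 FPKM, and the hinge protein Uqcrh at 596 and 611 against 567 and 568 FPKM. For these 5 genes, 55.6% of the 9, both MSC KO libraries lay below both WT libraries, against 32.5% of all genes. Uqcrc1, the other core protein, was at 162 and 161 against 163 and 152 FPKM.

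Uqcrq, a small accessory subunit, and Cycs, the soluble cytochrome c that carries electrons from complex III to complex IV and also acts in apoptosis, were high in MSC KO 1 alone. Uqcrq stood at 599, 566, 835 and 568 FPKM (the WT pair first). Cycs stood at 73.9 FPKM in each WT library, with 105 FPKM in MSC KO 1 against 75.0 in MSC KO 2. The first table thus gave 0.48 for Uqcrq and 0.51 for Cycs, and the second table gave 0.00 and 0.02. The mean differences of 0.24 ± 0.15 and 0.26 ± 0.16 (SE) had adjusted p of 0.439 and 0.425 in limma. Cycs has NRF1 letters in the promoter shown above, as does Ndufaf4.

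Complex IV, cytochrome c oxidase, has ubiquitous subunits and isoforms that replace them in certain tissues. Of 16 tested genes 5 were lower and 3 higher in both tables, 8 were higher in the first table but lower in the second table, and 13 were lower in MSC KO 2 than in WT 2. The medians were 0.06 in the first table (-0.03 with quantile normalization) and -0.15 in the second table, the widest gap of the 5 complexes as deposited. Over both tables the median was -0.01, and 0.01 with median centring. The 11 ubiquitous or single subunits had medians of 0.09 and -0.16, with 3 lower and 1 higher in both tables.

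Among the ubiquitous subunits Cox5b, which binds zinc, showed the gap clearly, at 458, 470, 519 and 404 FPKM (the WT pair first). Cox6a1 was at 729, 748, 854 and 667 FPKM, and Cox5a at 614, 626, 653 and 538 FPKM. In each of the 3 genes MSC KO 1 was the highest library and MSC KO 2 the lowest. Cox4i1, the main form of subunit 4, had the same order at 742, 756, 795 and 698 FPKM, and so had Cox8a at 764, 770, 880 and 761 FPKM, although it was nearly level in the second table. For Cox7a2, at 350, 375, 360 and 327 FPKM, MSC KO 2 was again the lowest. Cox7c was within 0.1 of WT in both tables at 740, 722, 745 and 755 FPKM, and Cox7b likewise at 231, 221, 227 and 217 FPKM.

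Ndufa4, first counted to complex I and now known as a subunit of complex IV, was at 466 and 496 FPKM in WT, against 446 and 402 FPKM in MSC KO (-0.18). Cox7a2l, which helps join complexes III and IV into supercomplexes, was at 408 and 411 FPKM in WT, against 376 and 375 FPKM in MSC KO (-0.12 ± 0.08 SE, adjusted p 0.457 in limma). Both MSC KO libraries lay below both WT libraries for each. This held for 4 of the 16 complex IV genes (25%), against 32.5% of all genes. Both lay above for 2 (12.5%), against 26.6%.

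Cox4i2, the form of subunit 4 known from lung and for its link to low oxygen, had the largest difference of the 88 genes at a very low level. It was at 1.81 (WT 1) and 2.67 FPKM (WT 2) against 6.42 (MSC KO 1) and 4.66 FPKM (MSC KO 2), with no overlap (chromosome 2, 152579908 to 152590773 on mm9). The ratio was 3.55 in the first table (2.4 to 5.3) and 1.74 in the second table (1.28 to 2.38). The mean difference of 1.01 ± 0.24 (SE) had an adjusted p of 0.186 in limma, and on a log2(FPKM + 10) scale it was 0.34. Even so Cox4i2 made up only 0.243% and 0.353% of the summed Cox4i1 and Cox4i2 level in WT and 0.801% and 0.664% in MSC KO.

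Cox6a2, the heart and muscle form of subunit 6a, was at 1.69 and 2.35 FPKM in WT, against 1.12 and 0.774 FPKM in MSC KO, a difference of -0.63 ± 0.22 (SE, adjusted p 0.259 in limma). Its ratio was 0.663 in the first table, with a counting interval of 0.356 to 1.19 that includes 1, and 0.33 (0.182 to 0.57) in the second table. The locus listed for Cox6a2 overlaps that of the integrin gene Itgad, so reads could be shared. Cox6a2 made up 0.231% and 0.313% of the summed subunit 6a level in WT and 0.131% and 0.116% in MSC KO.

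Cox7a1, the muscle form of subunit 7a, had opposite differences in the tables. It stood at 24.0, 25.2, 41.4 and 20.2 FPKM (the WT pair first), which is 0.76 in the first table against -0.31 in the second table. Its share of the summed Cox7a1 and Cox7a2 level was 6.42% and 6.30% in WT, against 10.3% (MSC KO 1) and 5.80% (MSC KO 2). Cox6b2, the testis form of subunit 6b, was high in MSC KO 2 alone, at 17.6, 19.6, 17.7 and 29.1 FPKM, and its share of the summed subunit 6b level went from 2.58% and 2.88% in WT and 2.39% in MSC KO 1 to 4.41% in MSC KO 2. Under the level limit, Cox8b was at up to 1.09 FPKM and Cox7b2 and Ndufa4l2 at up to 0.0815 FPKM in any library, and Cox8c was listed at 0 in all.

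Complex V, the ATP synthase, was represented by 16 genes. Their medians were -0.10 in the second table and 0.03 in the first table. There the median was -0.02 with 1 common sum, -0.06 with quantile normalization and 0.03 with median centring. In both tables, 6 were lower and 1 higher, and 14 were lower in MSC KO 2 than in WT 2. The F1 subunits form the catalytic head. Atp5b stood at 1009, 1035, 1120 and 982 FPKM (the WT pair first), and Atp5a1, the alpha subunit, at 518, 535, 488 and 497 FPKM. The central shaft subunit Atp5c1 was at 372, 389, 349 and 364 FPKM. MSC KO lay below WT for Atp5a1 (-0.10) and Atp5c1 (-0.10), and Atp5b overlapped. Both MSC KO libraries lay below both WT libraries for 3 of the 16 complex V genes (18.8%), against 32.5% of all genes. Both lay above for 1 (6.25%), against 26.6%.

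The c ring, which turns as protons pass, is made of 1 protein encoded by 3 genes, Atp5g1, Atp5g2 and Atp5g3. Atp5g2 was at 949 and 948 FPKM in WT, against 829 and 850 FPKM in MSC KO (-0.18 ± 0.08 SE, adjusted p 0.311 in limma). Atp5g1 was at 225 and 221 against 236 and 232 FPKM, higher in both tables by 0.07, and Atp5g3 at 811, 791, 810 and 737 FPKM. The shares of the 3 genes in their summed level moved little: Atp5g1 made up 11.3% in both WT libraries and 12.6% and 12.7% in MSC KO, and Atp5g2 47.8% and 48.4% in WT and 44.2% and 46.7% in MSC KO.

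Atp5k, the e subunit of the membrane part, was low in MSC KO 2. It stood at 1107, 978, 993 and 653 FPKM (the WT pair first), and MSC KO 1 lay between the WT libraries. The difference was -0.16 in the first table against -0.58 in the second table (-0.37 ± 0.14 SE, adjusted p 0.272 in limma). Atp5s, a coupling factor rather than a subunit of the enzyme, was at 6.06, 4.85, 3.52 and 5.22 FPKM, with differences of -0.64 and 0.09. The symbol Cox4nb also matches the rule, although the gene is no subunit of complex IV, and it stood at 8.72, 8.54, 8.81 and 7.60 FPKM.

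Leaving out 1 MSC KO library changed which members passed the test. Without MSC KO 1, in a fit without a block where the lone library is assumed to vary like the others, limma called 13 members at an adjusted p under 0.05. They were Atp5k, Cox5a, Cox6b2, Cox6c, Ndufa3, Ndufaf3, Ndufb2, Ndufb3, Ndufb7, Ndufc1, Ndufs6, Uqcr11 and Uqcrb. Without MSC KO 2 it called 9, which were Atp5g2, Cox4i2, Cox6a1, Cox7a1, Cox8a, Cycs, Ndufa1, Ndufaf3 and Uqcrq. Ndufaf3 alone stood in both lists. Passing was common over all genes in these fits, and the number of all genes that passed in both is not given here. Without WT 1 or without WT 2 limma called 0 members, with 3 and 2 of them at an unadjusted p under 0.05. Over all genes limma called 2301 without MSC KO 1 and 2672 without MSC KO 2, against 1 with all libraries.

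Genes that work beside the complexes were read in the same way, and none of those named below passed an adjusted p of 0.05 in limma. The counts of each list stand against 37.5% of all genes lower and 31.2% higher in both tables, and 18.1% higher in the first but lower in the second. Of 27 assembly factors outside the symbol rule 11 were lower and 9 higher in both tables, with medians of 0.08 and -0.06. Sco1, a copper chaperone of complex IV, was at 4.39 and 4.97 FPKM in WT, against 10.2 and 8.90 FPKM in MSC KO (0.89 ± 0.13 SE, adjusted p 0.139 in limma). Sdhaf1, which helps fit the iron-sulfur clusters of complex II, was at 65.6 and 63.5 against 42.2 and 43.1 FPKM (-0.59). Fam36a, the complex IV assembly factor also called Cox20, was at 80.9 and 78.3 against 60.8 and 60.1 FPKM (-0.39). In all 3 the libraries of a genotype lay close together and the groups were apart, as for Ndufaf3. They were named for their large same-sign differences, so the choice itself favours groups that lie apart. Of the 27 genes 33.3% had both MSC KO libraries below both WT libraries and 29.6% above, against 32.5% and 26.6% of all genes. A difference of at least 0.3 in the same direction in both tables was seen for 11.1% of the 27, against 16.8% of all genes.

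The tricarboxylic acid cycle, which feeds complexes I and II, had 6 of 18 genes lower and 2 higher in both tables, with a median of -0.04 in each. Suclg2, a subunit of succinyl-CoA ligase, was at 48.7 and 51.2 against 33.4 and 40.6 FPKM (-0.43). Of 13 coenzyme Q synthesis genes 3 were lower and 4 higher. Of 21 carriers and porins 3 were lower and 3 higher, and 15 were higher in the first table but lower in the second table, all as deposited. Slc25a3, the phosphate carrier that supplies ATP synthase, was at 396 and 404 FPKM in WT, against 452 and 463 FPKM in MSC KO (0.19).

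Among 19 genes of mitochondrial biogenesis and mitochondrial DNA upkeep 7 were lower and 8 higher in both tables. Nrf1, the factor whose letters stand in the Cycs and Ndufaf4 promoters, was at 16.1 and 16.3 FPKM in WT, against 12.2 and 11.5 FPKM in MSC KO (-0.42 ± 0.09 SE, adjusted p 0.175 in limma). Gabpb1, a subunit of GABP, was at 29.0 and 29.6 against 23.6 and 26.2 FPKM (-0.23), and the coactivator Pprc1 at 10.3 and 11.9 against 15.2 and 14.9 FPKM (0.41). Of 75 mitochondrial ribosomal protein genes 16 were lower and 24 higher in both tables, with medians of 0.06 and -0.04. Of 20 glycolysis genes 3 were lower and 7 higher, with medians of 0.13 and -0.04. The glucose transporter Slc2a3 was at 46.4 and 49.2 FPKM in WT, against 106 and 77.3 FPKM in MSC KO (0.91), and hexokinase Hk2 at 20.8 FPKM in each WT library, against 39.9 and 30.6 FPKM in MSC KO (0.72).

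**Figure D5:**
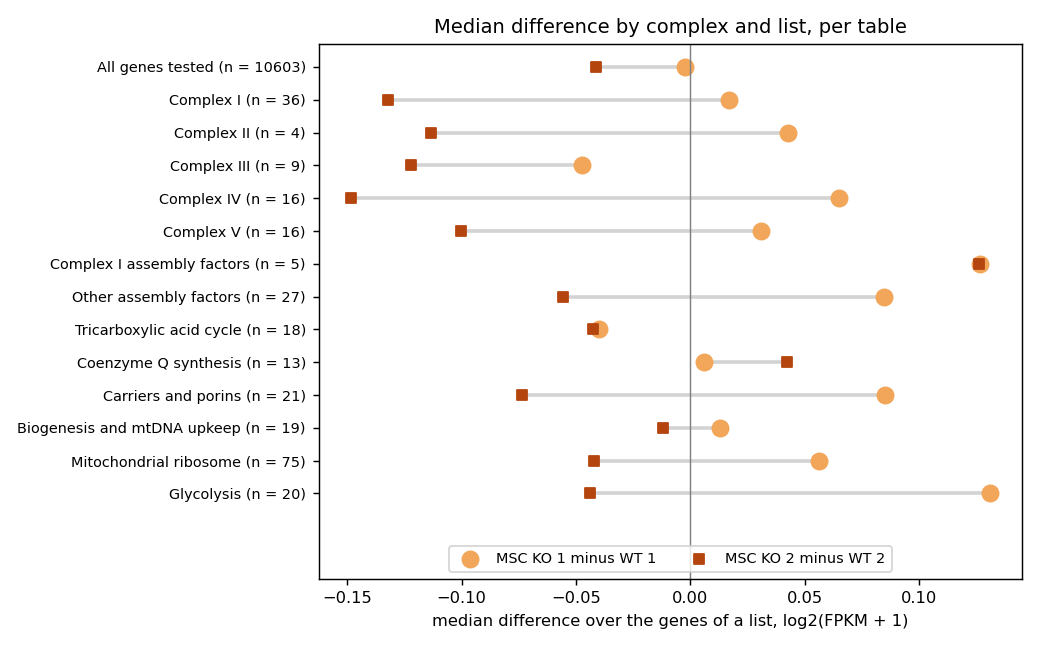
Median difference in log2(FPKM + 1) over the genes of each complex and of each accompanying list, MSC KO 1 minus WT 1 (circles) and MSC KO 2 minus WT 2 (squares). The medians of the 5 complexes lie between -0.15 and -0.10 in the second table and between -0.05 and 0.06 in the first table. Those of the 5 complex I assembly factors lie at 0.13 in both. The medians of the complexes in the first table are as deposited. They are lower with 1 common sum or quantile normalization, and between -0.05 and 0.07 with median centring.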

How the data were processed

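Gene-level tables of 2 WT and 2 MSC KO RNA-seq libraries were used, the first holding WT 1 and MSC KO 1 and the second WT 2 and MSC KO 2. Reads were aligned to mm9 with TopHat, per the submitters' processing notes; its version, like the gene annotation, is not given in the sources used here. Neither is the unit named, and the values the authors deposited were taken to be FPKM by their range and the tables' layout, and the authors' deposited p-value and q-value stand with each gene. Of repeated symbols the highest mean was kept. Values on the log2(FPKM + 1) scale, for genes with a mean of at least 1 FPKM, were compared with limma 3.58.1 (R 4.3.3; two-sided, trended prior, table as a block in case the tables were scaled separately, Benjamini-Hochberg over 10603 genes). The fit's code was run on simulated data drawn with the spread of the WT pair and without a difference between tables. That run does not show how the test performs at the wider spread of the MSC KO pair. The fit to the data had 1 residual degree of freedom, and the prior added 2.358. The printed SE and p-values thus rest in large part on the spread of other genes of like level, not on the gene's own spread alone. Depth was estimated from the smallest FPKM steps, and fragments per gene from it and the longest transcript; intervals cover counting error only. Genes were named by rule: per complex up to 4 in each direction by the smaller of their same-sign differences, the most abundant, core subunits and isoforms, those opposed by at least 0.3 between tables, and up to 3 per accompanying list. Atp5s, Ndufb2 and the genes of fits with a library left out were named after their values were seen. Members and lists were chosen with earlier results of these data known. RefSeq promoters (GRCm38.p6) were matched by symbol. Alternatives varied pseudocount, filter, scaling, prior, block and libraries. The values of a few genes that the rule names are not reported here.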

Additional observations from a re-analysis of the deposited data

Results flagged for a closer look

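Neither table pairs a symbol with the core subunits encoded by mitochondrial DNA, but each holds 1 entry without a symbol that spans nearly the whole mitochondrial chromosome. This entry lay outside the gene comparisons and was looked at because the libraries labelled MSC KO were above WT in it in both tables. In the first table it stood at 224 FPKM for WT 1 against 269 FPKM for MSC KO 1, a difference of 0.26 in log2(FPKM + 1). In the second it stood at 244 FPKM for WT 2 against 287 FPKM for MSC KO 2, a difference of 0.23. The authors' deposited tables give it a q-value of 0.999 in each. The 88 nuclear genes matched by the rule, a few of them not subunits, had medians of 0.02 and -0.11 in the same tables. The entry merges all mitochondrial transcripts, so no single subunit can be read from it, and the difference from the nuclear genes was not tested.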

How the results depend on the processing

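No member was called by limma under any setting that kept all libraries, and at an unadjusted p under 0.05 these settings gave 2 to 8 members. Leave-one-out fits called 0 to 13 members and 0 to 2672 genes in all. Over all genes, where the fit with the table as replicate block called 1, the count was 153 with no replicate block, 0 with a pseudocount of 10, 0 with no filter, 3 with a mean of at least 5 FPKM, 7 with libraries rescaled to the same sum, 21 with median centring, 0 with quantile normalization, 0 with a prior without trend and 26 with small RNA genes left out. The replicate number pairs the libraries only through the tables, and no label says that they share an animal or a day. Members lower in both tables numbered 33 and became 50 with quantile normalization, and members higher in both numbered 14 and became 8 with the same sum. The cause was not tested. The median differences of the 5 complexes moved by less than the spread between the tables in every setting, but signs changed: complex IV (-0.01) was at 0.01 with no filter and with median centring. Without MSC KO 2 the medians of complexes I, II, IV and V were 0.01, 0.03, 0.05 and 0.01, and that of complex III -0.06. Without MSC KO 1 the 5 lay between -0.14 and -0.09. With 2 libraries a group and 1 residual degree of freedom, differences as small as those of most members are hard to resolve, whatever the depth.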
